A study of Mus musculus with 10 samples.

Results

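The tumour necrosis factor (TNF) ligands, their receptors and the adaptor proteins that bind those receptors were examined in the motor cortex of mice lacking membralin in astrocytes. The members were taken by symbol from the protein-coding genes of the table: every gene named as a numbered TNF ligand or TNF receptor, Traf1 to Traf7, and Tnf, Lta, Fas, Cd40, Ltbr, Ngfr, Tradd and Ripk1. This gave 47 of the 35275 genes in the table, made up of 14 ligands, 24 receptors and 9 adaptors. A mean of at least 0.5 FPKM (fragments scaled by gene length and library size) over the 10 libraries was reached by 24 of them, namely 2 ligands, 14 receptors and 8 adaptors. KO libraries came from 5 mice with an astrocyte conditional knockout of membralin, a membrane protein of the endoplasmic reticulum encoded by Tmem259, and WT libraries came from 5 wild-type mice. All were C57BL/6 mice at postnatal day 22, and the labels call the samples of a genotype biological repeats. The Cre driver is not given in the sources used here, and RNA was taken from whole tissue, in which cells other than astrocytes keep the gene. Fewer cells of a type and less RNA per cell therefore cannot be told apart.

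TNF ligands are mostly trimeric membrane proteins that can be shed, and they cluster their receptors on the target cell. Receptors with a death domain, such as those encoded by Tnfrsf1a, Fas and Tnfrsf25, recruit Tradd, Ripk1 or caspase adaptors. Many of the others, decoy receptors aside, bind TRAF proteins directly, and both routes can lead to NF-kB and JNK signalling. In brain, TNF is mainly a product of activated microglia, and the receptor encoded by Tnfrsf1a is found on many cell types while that encoded by Tnfrsf1b is prominent on microglia.

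The table corresponded to 22968013 to 27567361 fragments per KO library and 22793058 to 28827871 per WT library. Tmem259 measured 20.1, 18.5, 34.4, 16.9 and 26.2 FPKM in KO1 to KO5, and 25.5, 23.8, 25.0, 32.4 and 30.4 FPKM in WT1 to WT5. The targeted gene thus goes against the label of KO3, which had the highest value of all 10 libraries. KO5 also lay within the WT range, and the difference of Tmem259 did not pass (log2 difference -0.27, limma adjusted p = 0.275). With KO3 set aside Tmem259 was called lower (log2 difference -0.42, limma adjusted p = 0.0278). That was the only call of Tmem259 among the 10 fits that leave out 1 library. Removing the KO library with the most Tmem259 must lower the KO mean of this gene. Calls of members, partners and marker lists that change without the library labelled KO3 are given both ways. Among tested genes 9357 of 14497 lay nearer to the WT mean than to the mean of the other KO libraries in that library, as did 12 of the 24 tested members. Markers of the tissue were present, and neuronal markers summed to 2281 to 2528 FPKM in KO and 2131 to 2317 FPKM in WT.

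In KO cortex 3 receptors rose, Tnfrsf1a, Tnfrsf12a and Tnfrsf1b, together with the adaptor Traf4, while the adaptor Traf3 fell. Neither of the 2 tested ligands passed. These counts are 4 higher and 1 lower of 24 members, or 16.7% and 4.17%, against 9.77% called higher and 3.51% called lower, or 13.3% either way, over all 14497 tested genes (limma on log2(FPKM + 1), Benjamini-Hochberg adjusted p under 0.05 over all genes). At an unadjusted p under 0.05, 9 members were higher and 1 was lower, and 32.8% of all tested genes passed that level either way. The members' shares lie above these backgrounds by a few genes at most. The median log2 difference of the 24 members was 0.11, with 18 of 24 positive, and that of all tested genes was 0.08, with 69.5% positive. With median-of-ratios scaling the members' median was 0.056 and that of all tested genes 0.0032, and the calls were 1 member higher and 1 lower, with 625 of all genes higher and 901 lower. No member was called without KO2, without KO4 or without WT1, in limma fits where 8, 7 and 7 members were higher and 2, 1 and 1 lower at an unadjusted p under 0.05, and 8 members were called without the library labelled KO3. Over all tested genes the same fits called 2 without each of KO2, KO4 and WT1, and 3763 without KO3. Voom on the recovered fragments of all 10 libraries called 3 members, Tnfrsf1a, Tnfrsf1b and Traf3.

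**Figure D1:**
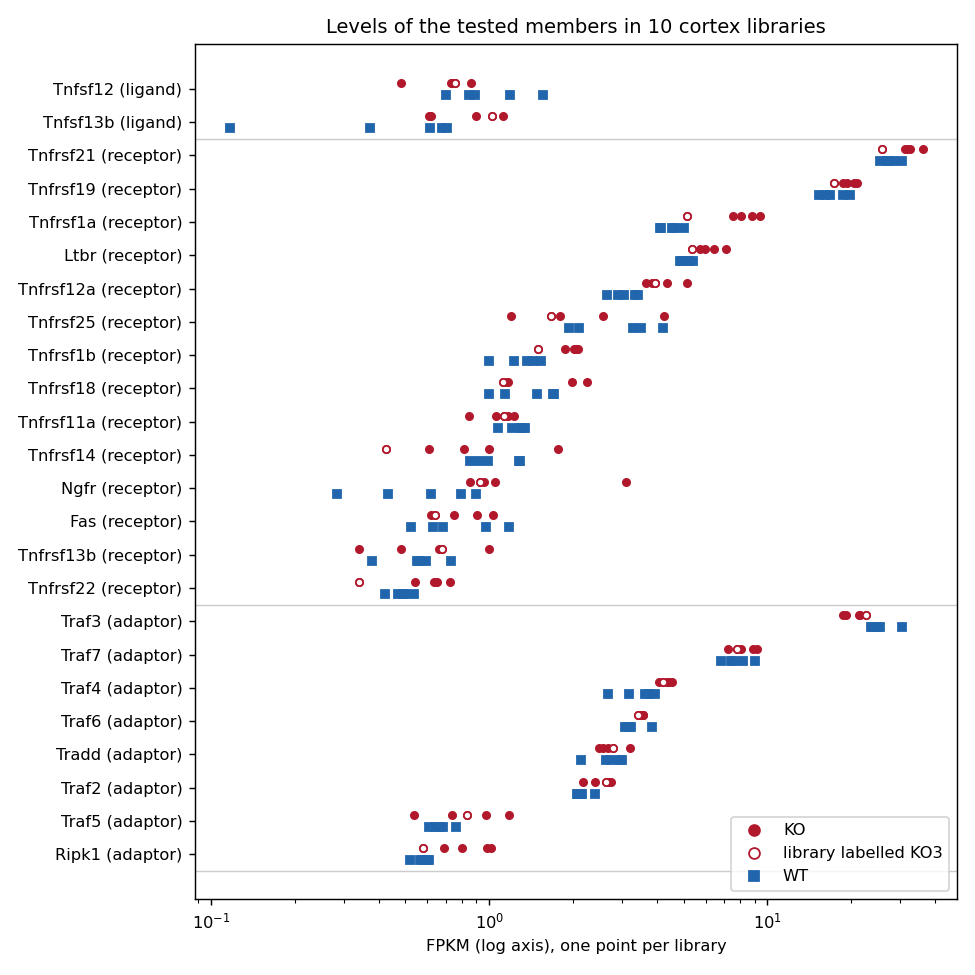
FPKM on a log axis of the 24 members with a mean of at least 0.5 FPKM, by role, with 1 point per library for KO and WT, and the library labelled KO3 as an open circle. Tnfrsf21, Traf3 and Tnfrsf19 lie highest, and the tested ligands Tnfsf12 and Tnfsf13b average 0.873 and 0.675 FPKM over the 10 libraries.

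Transcripts of receptors and adaptors were far more abundant than those of ligands. Summed FPKM, a level per length, was 68.1 to 88.5 in KO and 67.5 to 75.4 in WT for the 24 receptors. It was 42.8 to 45.9 in KO and 43.9 to 50.3 in WT for the 9 adaptors. For the 14 ligands it was 2.58 to 3.75 in KO and 2.29 to 3.30 in WT, so that ligand transcripts were scarce in either genotype. Most of the receptor sum came from Tnfrsf21 and Tnfrsf19, at means of 29.6 and 18.4 FPKM over the 10 libraries. Traf3, at 23.2 FPKM, made up a large part of the adaptor sum. The receptor sums of the library labelled KO3, at 68.1 FPKM, and of the other KO libraries, at 84.9 to 88.5 FPKM, did not overlap.

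Among ligands, Tnfsf12 and Tnfsf13b passed the filter. Tnfsf12, which encodes TWEAK, the ligand of the receptor encoded by Tnfrsf12a, measured 0.480, 0.732, 0.752, 0.860 and 0.728 FPKM in KO1 to KO5, against 1.18, 0.846, 0.887, 0.699 and 1.56 FPKM in WT1 to WT5. The groups overlapped and the difference did not pass (log2 difference -0.24, SE 0.11, limma adjusted p = 0.167). Its exons share 48.3% of their bases with a read-through gene of the same strand, so the split of reads between them is uncertain. Tnfsf13b, which encodes BAFF, a survival factor of B cells, averaged 0.853 ± 0.234 FPKM in KO and 0.498 ± 0.251 FPKM in WT (SD, n = 5 each). WT1 was lowest at 0.117 FPKM, and the difference did not pass (log2 difference 0.32, SE 0.13, limma adjusted p = 0.122). This gene reached the filter only through its KO level.

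Tnf itself (chromosome 17, 35199381 to 35202007, minus strand, mm10) was close to the detection limit. It gave 0, 3, 1, 2 and 1 fragments in KO1 to KO5 and 0 fragments in each of WT1 to WT5. The 7 KO fragments pool to 0.0343 FPKM, and a count of 0 in WT allows a level of up to 0.0140 FPKM, taken as 3 fragments over the group. In the fit without a filter Tnf was not called (limma adjusted p = 0.177, and 0.121 to 0.277 with each library left out). Its neighbour Lta, which encodes lymphotoxin alpha, measured 0.105, 0.136, 0.218, 0.149 and 0.693 FPKM in KO1 to KO5, against 0.0784, 0.0502, 0.190, 0.215 and 0.442 FPKM in WT1 to WT5, and the replicate 5 libraries were highest in both groups.

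Of the 14 tested receptors, 3 passed, all higher in KO. Tnfrsf1a (ENSMUSG00000030341, chromosome 6, 125349362 to 125362484, plus strand), the death-domain receptor of soluble TNF, measured 7.52, 9.40, 5.16, 8.78 and 8.06 FPKM in KO1 to KO5, against 4.56, 5.04, 4.11, 4.67 and 4.13 FPKM in WT1 to WT5. The groups did not overlap, and the library labelled KO3 lay just above WT2. The means were 7.78 ± 1.63 FPKM in KO and 4.502 ± 0.389 FPKM in WT (SD, n = 5 each), a ratio of 1.73, and the log2 difference was 0.66 (SE 0.12, limma adjusted p = 0.0186). With the library labelled KO3 set aside the log2 difference was 0.78, at a KO mean of 8.44 ± 0.821 FPKM (SD, n = 4; limma adjusted p = 0.00011). The call was lost without KO2, KO4 or WT1 (limma adjusted p = 0.0517, 0.0555 and 0.0514), and the adjusted p ranged from 0.00011 to 0.247 over 29 alternatives, with the same direction in all of them.

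Tnfrsf12a (ENSMUSG00000023905, chromosome 17, 23675447 to 23677449, minus strand), a small receptor without a death domain that binds TWEAK, measured 4.37, 3.86, 3.94, 3.67 and 5.15 FPKM in KO1 to KO5, against 3.04, 3.42, 2.64, 2.89 and 3.34 FPKM in WT1 to WT5. The groups did not overlap, and the library labelled KO3 lay among the other KO libraries. The means were 4.20 ± 0.592 FPKM in KO and 3.07 ± 0.321 FPKM in WT (SD, n = 5 each; log2 difference 0.35, SE 0.09, limma adjusted p = 0.0272). The receptor rose while its ligand Tnfsf12, at the levels given above, did not pass. The call was lost without KO1, KO2, KO4, WT1, WT3 or WT4, with limma adjusted p from 0.0083 to 0.2 over 29 alternatives. It was also lost with median-of-ratios scaling and without a filter (limma adjusted p = 0.0645 and 0.0612), and in voom (adjusted p = 0.117).

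Tnfrsf1b (ENSMUSG00000028599, chromosome 4, 145213463 to 145246870, minus strand), the receptor that binds membrane-bound TNF most strongly and has no death domain, measured 2.02, 2.09, 1.503, 2.06 and 1.87 FPKM in KO1 to KO5, against 1.37, 1.44, 0.9997, 1.23 and 1.54 FPKM in WT1 to WT5. The groups overlapped at the library labelled KO3, which lay below WT5, and the other 4 KO libraries lay above every WT library. The means were 1.91 ± 0.243 FPKM in KO and 1.31 ± 0.208 FPKM in WT (SD, n = 5 each; log2 difference 0.33, SE 0.09, limma adjusted p = 0.0338). The 4 KO libraries other than KO3 averaged 2.01 ± 0.0982 FPKM (SD, n = 4; limma adjusted p = 0.00708). The call was lost without KO1, KO2, KO4, KO5, WT1, WT3 or WT4, with adjusted p from 0.00564 to 0.247 over 29 alternatives. It was also lost with median-of-ratios scaling and without a filter.

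**Figure D2:**
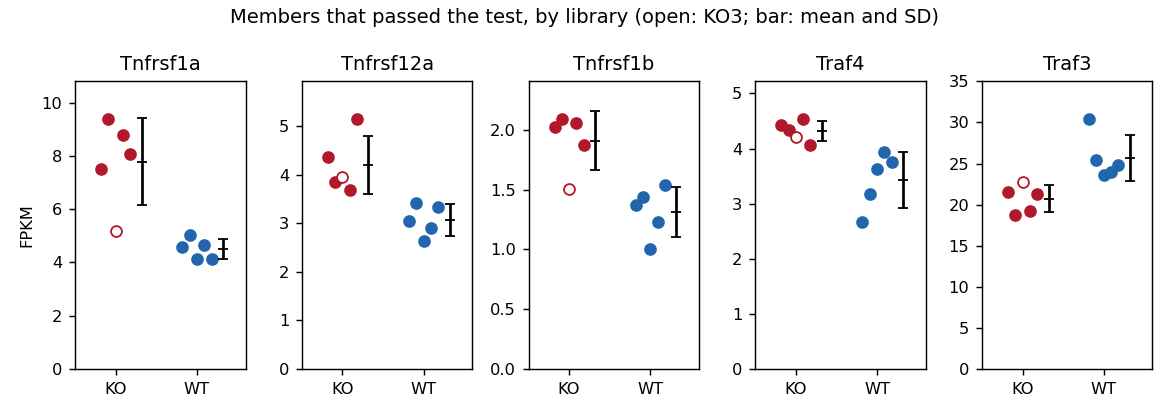
FPKM in each library of the 5 members that passed, KO left of WT in each panel, with bars for the mean and SD and the library labelled KO3 as an open circle. KO lies above WT for Tnfrsf1a, Tnfrsf12a and Traf4 without overlap, Tnfrsf1b overlaps at 1 KO library, and Traf3 lies lower in KO.

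Marker lists differed between the groups to unequal degrees. Of 10 general astrocyte genes 1 rose, Aqp4, and the median log2 difference of the list was 0.03. Of 10 endothelial genes 0 passed, at a median of 0.07. Of 12 reactive astrocyte genes 10 were tested and 8 rose, and their summed FPKM was 140 to 828 in KO and 106 to 146 in WT, with the library labelled KO3 at 140 FPKM. Of 15 microglial genes 7 rose, with sums of 228 to 345 FPKM in KO and 182 to 230 FPKM in WT, and of 14 mural and meningeal genes 5 rose, with sums of 81.8 to 156 FPKM in KO and 71.7 to 89.5 FPKM in WT. Of 16 genes of infiltrating leukocytes 14 were under 0.5 FPKM, including Ncr1 and Ly6g at 0 in every library, and neither of the 2 tested passed. Of 10 olfactory bulb genes 3 rose, Calb2, Th and Trh. The list summed to 94.7 to 144 FPKM in KO and 56.2 to 100.2 FPKM in WT. Omp, Eomes, Cdhr1, Doc2g, Tbx21 and Pcdh8 were higher without passing. Omp measured 5.92, 10.5, 7.95, 8.89 and 0.406 FPKM in KO1 to KO5, against 0.270, 0.259, 3.26, 2.95 and 0.228 FPKM in WT1 to WT5. Eomes, Cdhr1, Doc2g and Tbx21 were likewise lowest in KO5 among KO libraries and highest in WT3 and WT4 among WT libraries. The median log2 difference of the olfactory bulb list was 1.07, the largest among the marker lists, and Tbr1, at -0.14, lay the other way. With the score of the olfactory bulb genes as a covariate limma called 0 members, with 6 higher and 0 lower at an unadjusted p under 0.05. That fit called 0 of all 14497 genes (1452 higher and 758 lower at an unadjusted p under 0.05), and its log2 differences were 0.64 for Tnfrsf1a, 0.59 for Tnfrsf12a, 0.45 for Tnfrsf1b, 0.14 for Traf4 and -0.14 for Traf3. Of 10 neuronal genes 4 rose, Tubb3, Eno2, Gad1 and Gad2, and the median log2 difference of the list was 0.07. Rbfox3, Nefl, Syt1, Snap25 and Map2 were lower without passing (log2 differences -0.25, -0.13, -0.11, -0.07 and -0.03). Slc17a7 was higher at 0.17 without passing. With KO3 set aside 5 neuronal genes were called higher and 1, Rbfox3, was called lower. Of 8 oligodendrocyte genes none passed in limma (7 lower at an unadjusted p under 0.05), with a median log2 difference of -0.28 and sums of 1277 to 1870 FPKM in KO and 1665 to 2062 FPKM in WT, and with KO3 set aside 6 of them were called lower. With KO3 set aside, limma called 9 reactive astrocyte, 10 microglial, 9 mural and meningeal, 4 olfactory bulb and 2 general astrocyte genes higher. In that fit 1 endothelial gene, Flt1, was called lower. It called 19.6% of all tested genes higher and 6.36% lower. The part of these cells and of neighbouring tissue in the results was not tested.

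The 5 members that passed are shown with the stretch from 250 bases before to 50 bases after their RefSeq start (GRCm38.p6, 5′ to 3′ on the gene's strand), since 4 of them rose together and 1 fell. Capitals mark a match to the GAS motif (TTCNNNGAA, the element bound by STAT proteins), the AP-1 motif (TGANTCA) or the NF-kB consensus, each searched on both strands. The windows are chr6:125349473-125349772 on the plus strand for Tnfrsf1a, chr17:23677400-23677699 on the minus strand for Tnfrsf12a, chr4:145246821-145247120 on the minus strand for Tnfrsf1b, chr11:78165501-78165800 on the minus strand for Traf4 and chr12:111166120-111166419 on the plus strand for Traf3.
Tnfrsf1a: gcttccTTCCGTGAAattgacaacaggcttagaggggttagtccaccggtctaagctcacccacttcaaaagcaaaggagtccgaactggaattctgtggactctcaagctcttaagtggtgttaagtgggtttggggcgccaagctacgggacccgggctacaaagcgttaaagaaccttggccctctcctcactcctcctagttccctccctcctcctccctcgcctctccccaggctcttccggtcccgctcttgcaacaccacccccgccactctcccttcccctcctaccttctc
Tnfrsf12a: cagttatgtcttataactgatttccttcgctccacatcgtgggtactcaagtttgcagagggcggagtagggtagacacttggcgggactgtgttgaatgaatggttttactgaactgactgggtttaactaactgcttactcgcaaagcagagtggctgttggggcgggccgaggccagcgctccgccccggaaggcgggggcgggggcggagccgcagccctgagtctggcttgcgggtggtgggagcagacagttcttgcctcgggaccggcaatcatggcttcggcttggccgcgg
Tnfrsf1b: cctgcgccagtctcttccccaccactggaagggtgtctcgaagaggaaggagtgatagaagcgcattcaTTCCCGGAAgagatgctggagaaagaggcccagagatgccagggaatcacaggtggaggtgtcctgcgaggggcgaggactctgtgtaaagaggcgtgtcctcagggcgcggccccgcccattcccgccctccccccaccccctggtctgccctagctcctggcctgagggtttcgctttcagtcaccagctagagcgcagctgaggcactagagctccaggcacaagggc
Traf4: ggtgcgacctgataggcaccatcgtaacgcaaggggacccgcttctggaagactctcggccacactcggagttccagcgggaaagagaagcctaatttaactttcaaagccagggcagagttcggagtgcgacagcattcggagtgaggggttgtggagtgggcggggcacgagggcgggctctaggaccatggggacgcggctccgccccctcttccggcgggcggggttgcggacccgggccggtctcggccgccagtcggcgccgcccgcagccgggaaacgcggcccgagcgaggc
Traf3: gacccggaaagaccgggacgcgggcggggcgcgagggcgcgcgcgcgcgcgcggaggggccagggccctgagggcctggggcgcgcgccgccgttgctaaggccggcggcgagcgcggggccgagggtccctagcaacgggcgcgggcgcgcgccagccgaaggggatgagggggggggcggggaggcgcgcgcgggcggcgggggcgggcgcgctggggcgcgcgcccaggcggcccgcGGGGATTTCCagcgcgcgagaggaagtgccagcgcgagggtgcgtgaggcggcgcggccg

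Both TNF receptor genes held 1 match to the GAS letters, Tnfrsf1a at position -244 and Tnfrsf1b at position -181 from the start, and 8.3% of 32851 RefSeq windows of the same length hold one. Traf3 held the NF-kB consensus at position -10, as 4.51% of windows do. None of the 5 windows held the AP-1 letters, which occur in 7.81% of windows. The GC box (GGGCGG on either strand, left in lower case, with no overlap with the other motifs) occurred 5 times for Tnfrsf12a, 5 times for Traf4, 4 times for Traf3, 2 times for Tnfrsf1b and 0 times for Tnfrsf1a, and 35.7% of windows hold at least 1. The Traf3 window was 84.0% G and C with 59 CpG dinucleotides, against a median of 52.7% and 7 over all windows. The RefSeq start of Tnfrsf1a lies 361 bases inside the gene as the table bounds it, so another start would give another window.

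The remaining 11 tested receptors did not pass. Tnfrsf21, a death-domain receptor known as DR6 that is expressed in neurons and oligodendrocyte precursors, was the most abundant member, at 36.2, 31.3, 25.8, 31.7 and 32.5 FPKM in KO1 to KO5, against 27.5, 30.4, 26.8, 28.5 and 25.3 FPKM in WT1 to WT5. The library labelled KO3 lay within the WT range and the other 4 KO libraries lay above every WT library. The log2 difference was 0.17 (SE 0.08, limma adjusted p = 0.155), rising to 0.24 with KO3 set aside (limma adjusted p = 0.0181, range over 29 alternatives 0.0125 to 0.472). Ltbr, the lymphotoxin beta receptor that signals through Traf3 to the non-canonical NF-kB arm, measured 5.72, 5.95, 5.34, 7.13 and 6.45 FPKM in KO1 to KO5, against 5.39, 5.19, 4.91, 4.85 and 5.22 FPKM in WT1 to WT5. All KO libraries except the one labelled KO3 lay above every WT library (log2 difference 0.22, SE 0.07, limma adjusted p = 0.0611). Without the library labelled KO3 the limma adjusted p was 0.0183, in a range of 0.0171 to 0.267 over 29 alternatives.

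Ngfr, the neurotrophin receptor of the family, measured 0.853, 0.958, 0.927, 1.05 and 3.11 FPKM in KO1 to KO5, against 0.619, 0.896, 0.789, 0.431 and 0.284 FPKM in WT1 to WT5. KO5 stood far above the rest, KO1 lay below WT2, and the difference did not pass (log2 difference 0.51, SE 0.20, limma adjusted p = 0.108). Without KO5 the log2 difference was 0.29 (limma adjusted p = 0.130, range over 28 alternatives 0.0601 to 0.269). Tnfrsf19, an orphan receptor known as TROY, averaged 19.3 ± 1.47 FPKM in KO and 17.4 ± 1.87 FPKM in WT (SD, n = 5 each; limma adjusted p = 0.189). It ranked next to Tnfrsf21 among receptors.

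Receptors best known from lymphocytes and bone were present at low levels with overlapping groups. Tnfrsf25, a death-domain receptor of T cells, averaged 2.29 ± 1.20 FPKM in KO and 3.01 ± 0.974 FPKM in WT (SD, n = 5 each), and Tnfrsf11a, the receptor RANK of osteoclast precursors, averaged 1.09 ± 0.146 FPKM in KO and 1.25 ± 0.109 FPKM in WT (SD, n = 5 each). Tnfrsf18, known as GITR, averaged 1.54 ± 0.536 FPKM in KO and 1.41 ± 0.325 FPKM in WT, but 27.2% of its exon bases lie opposite an antisense gene. The limma adjusted p of these 3 was 0.346, 0.343 and 0.797, and the sign of the difference of Tnfrsf25 and of Tnfrsf18 changed under some alternatives. Tnfrsf14, known as HVEM, averaged 0.922 ± 0.520 FPKM in KO and 1.07 ± 0.205 FPKM in WT (limma adjusted p = 0.567). Fas, the death receptor of Fas ligand, averaged 0.788 ± 0.179 FPKM in KO and 0.799 ± 0.271 FPKM in WT (limma adjusted p = 0.992). Tnfrsf13b, the receptor TACI for BAFF, averaged 0.631 ± 0.247 FPKM in KO and 0.561 ± 0.124 FPKM in WT (limma adjusted p = 0.770). Tnfrsf22, a decoy receptor for TRAIL in mouse, averaged 0.577 ± 0.146 FPKM in KO and 0.483 ± 0.0428 FPKM in WT (limma adjusted p = 0.526), and it reached the filter only through its KO level. The sign of the differences of Tnfrsf14, Fas and Tnfrsf13b also changed under some alternatives.

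Among the 8 tested adaptors Traf4 rose, Traf3 fell and 6 did not pass. Traf3 (ENSMUSG00000021277, chromosome 12, 111166370 to 111267153, plus strand), which holds back the non-canonical NF-kB arm by promoting the breakdown of the kinase encoded by Map3k14, measured 21.5, 18.8, 22.7, 19.2 and 21.3 FPKM in KO1 to KO5, against 30.5, 25.4, 23.6, 24.0 and 24.8 FPKM in WT1 to WT5. Every KO library lay below every WT library, and WT1 stood above the other WT libraries. The means were 20.7 ± 1.66 FPKM in KO and 25.7 ± 2.79 FPKM in WT (SD, n = 5 each; log2 difference -0.29, SE 0.08, limma adjusted p = 0.0307). With KO3 set aside the log2 difference was -0.33. Map3k14, its target, averaged 0.903 ± 0.161 FPKM in KO and 0.638 ± 0.0786 FPKM in WT, a difference that did not pass in limma. The call of Traf3 was lost without KO1, KO2, KO4, KO5, WT1, WT2 or WT5, with limma adjusted p from 0.0105 to 0.516 over 29 alternatives. It was also lost without a filter.

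Traf4 (ENSMUSG00000017386, chromosome 11, 78158499 to 78165589, minus strand), a TRAF protein with roles in development and cell polarity, measured 4.42, 4.34, 4.20, 4.54 and 4.07 FPKM in KO1 to KO5, against 2.67, 3.18, 3.63, 3.93 and 3.75 FPKM in WT1 to WT5. The groups did not overlap, and KO varied less than WT. The means were 4.32 ± 0.187 FPKM in KO and 3.43 ± 0.510 FPKM in WT (SD, n = 5 each; log2 difference 0.27, SE 0.08, limma adjusted p = 0.0480). This was the weakest of the 5 calls, and only the fits without the library labelled KO3 and without WT4 kept it among the 10 that leave out 1 library. Its limma adjusted p ranged from 0.024 to 0.586 over 29 alternatives. The call was also lost with median-of-ratios scaling, in voom and without a filter.

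The adaptors of the TNF receptor complex itself did not pass. Ripk1, the kinase that directs the complex towards survival or death, measured 0.799, 1.02, 0.576, 0.979 and 0.688 FPKM in KO1 to KO5, against 0.579, 0.517, 0.595, 0.562 and 0.607 FPKM in WT1 to WT5. The library labelled KO3 lay within the WT range and the other KO libraries lay above it (log2 difference 0.20, SE 0.09, limma adjusted p = 0.132, and 0.0458 with KO3 set aside, in a range of 0.0299 to 0.68 over 28 alternatives). Tradd, the death-domain adaptor of the receptor encoded by Tnfrsf1a, averaged 2.75 ± 0.290 FPKM in KO and 2.69 ± 0.351 FPKM in WT (SD, n = 5 each; limma adjusted p = 0.873). Traf2, the ubiquitin ligase partner of the complex, averaged 2.53 ± 0.239 FPKM in KO and 2.17 ± 0.135 FPKM in WT (limma adjusted p = 0.151). Its relative Traf5 averaged 0.852 ± 0.245 FPKM in KO and 0.669 ± 0.0576 FPKM in WT (limma adjusted p = 0.333). Traf6, which also serves Toll-like and interleukin receptors, averaged 3.53 ± 0.0562 FPKM in KO and 3.30 ± 0.313 FPKM in WT (limma adjusted p = 0.412). Traf7, a divergent member that lacks the TRAF domain, averaged 8.22 ± 0.801 FPKM in KO and 7.79 ± 0.831 FPKM in WT (limma adjusted p = 0.570).

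**Figure D3:**
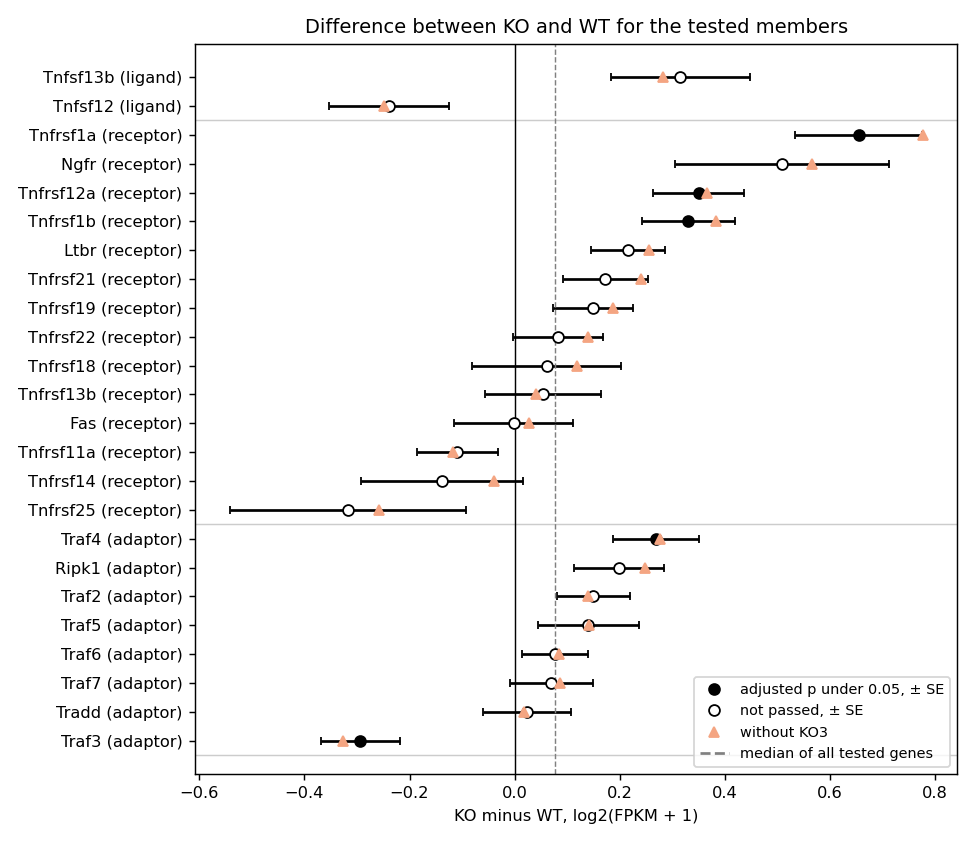
Log2 difference of KO minus WT with its standard error for the 24 tested members on the log2(FPKM + 1) scale, filled where the member passed, with triangles for the fit without the library labelled KO3 and a dashed line at the median of all tested genes. Tnfrsf1a lies farthest right at 0.66, and of the 5 members that passed Traf3 is the one to the left of 0, at -0.29.

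Leaving out the library labelled KO3 added Tnfrsf21, Ltbr and Ripk1 to the 5 members called, giving 7 higher and 1 lower. The background rose too, to 19.6% of all tested genes called higher and 6.36% called lower. Without overlap between all 5 KO and all 5 WT libraries, 3 tested members were higher and 1 was lower, against 5.7% and 1.85% of all tested genes.

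The 23 members under the filter were each below 0.5 FPKM on average, and without a filter 1 of them, Traf1, was called. Traf1, an adaptor that joins Traf2 at several receptors and is itself a target of NF-kB, measured 0.319, 0.595, 0.342, 0.459 and 0.371 FPKM in KO1 to KO5, against 0.202, 0.0916, 0.180, 0.185 and 0.0239 FPKM in WT1 to WT5. These are 30, 54, 27, 38 and 29 fragments in KO and 19, 9, 14, 17 and 2 fragments in WT, with no overlap of FPKM between the groups. The ratio of means was 3.05, and the limma adjusted p without a filter was 0.0483 (0.0145 without the library labelled KO3 and up to 0.138 with another library left out, highest without KO4). Of the 9 other fits that leave out 1 library none called it. Among all 25406 genes of that fit 1.37% were called higher, and among its 10909 genes under 0.5 FPKM 0.312% were called higher.

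Tnfsf10, which encodes TRAIL, a ligand that can trigger apoptosis and is induced by interferon, measured 0.487, 0.436, 0.475, 0.602 and 0.453 FPKM in KO1 to KO5, against 0.376, 0.278, 0.308, 0.246 and 0.212 FPKM in WT1 to WT5. The groups did not overlap, as in 1.21% of the genes under the filter with KO higher, and the ratio of means was 1.73. The difference missed the threshold without a filter (limma adjusted p = 0.0510, range with 1 library left out 0.0236 to 0.138, lowest without the library labelled KO3). Its mouse death receptor Tnfrsf10b measured 0.286, 0.651, 0.422, 0.791 and 0.412 FPKM in KO1 to KO5, against 0.205, 0.252, 0.318, 0.269 and 0.231 FPKM in WT1 to WT5. Only KO1 lay within the WT range, and the difference did not pass (limma adjusted p = 0.102 without a filter). Its soluble decoy Tnfrsf11b, osteoprotegerin, averaged 0.472 FPKM in KO and 0.320 FPKM in WT (limma adjusted p = 0.264 without a filter).

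The other low members were thinly covered. Tnfrsf17, the plasma cell receptor BCMA, had 0, 1, 2, 1 and 0 fragments in KO1 to KO5, against 4, 2, 4, 2 and 7 fragments in WT1 to WT5 (limma adjusted p = 0.102 without a filter). Tnfsf18, the ligand of GITR, had 3, 0, 1, 2 and 2 fragments in KO1 to KO5 and 0 in every WT library (limma adjusted p = 0.173 without a filter). Tnfsf11, the ligand RANKL, had 2, 3, 0, 1 and 1 fragments in KO1 to KO5, against 0, 1, 0, 0 and 0 in WT1 to WT5. None of these 3 was called, at 0 to 7 fragments per library. Tnfsf14, Tnfsf8, Tnfsf4 and Tnfsf15, ligands of lymphocyte receptors, gave 4 fragments or fewer in each library. Tnfrsf8, Tnfrsf4, Cd40 and Tnfrsf13c, receptors of lymphocytes and antigen-presenting cells, averaged 0.404, 0.367, 0.188 and 0.184 FPKM in KO, against 0.271, 0.353, 0.173 and 0.143 FPKM in WT. Tnfrsf9, a costimulatory receptor of T cells, averaged 0.138 FPKM in KO and 0.0655 FPKM in WT (limma adjusted p = 0.169 without a filter). Tnfsf9, its ligand, averaged 0.259 FPKM in KO and 0.323 FPKM in WT.

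**Figure D4:**
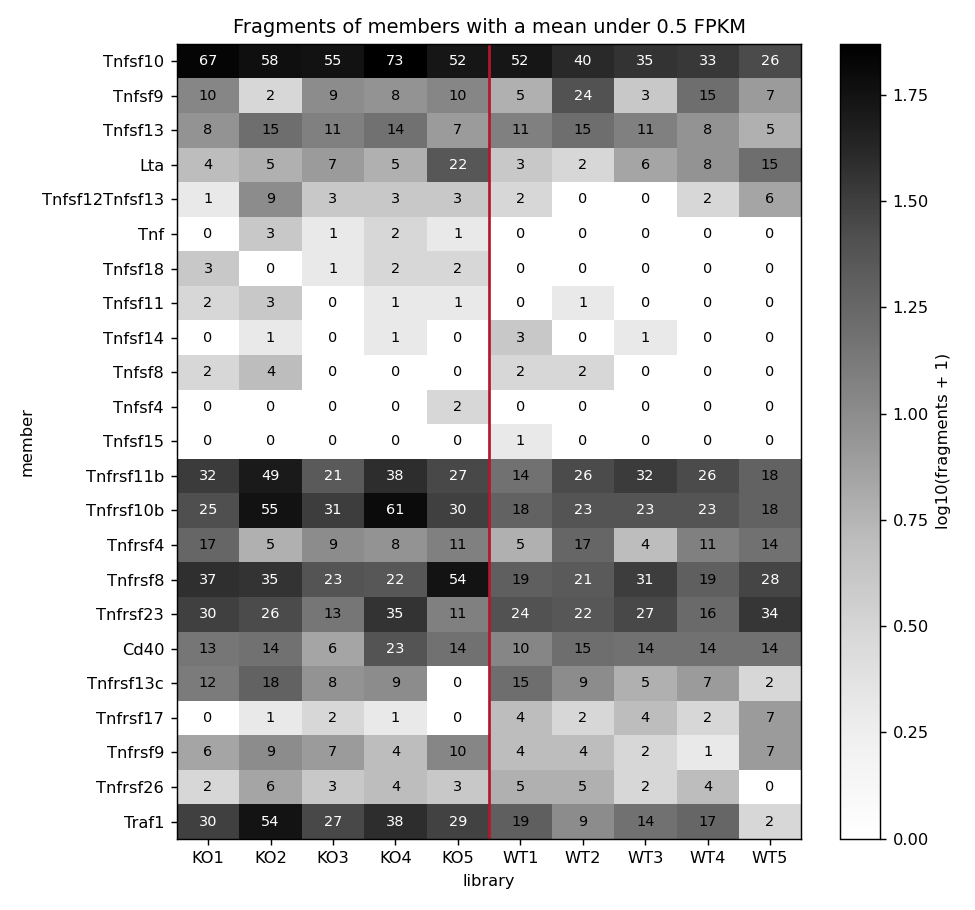
Fragments per library recovered for the 23 members under 0.5 FPKM, KO libraries left of WT libraries, as numbers in cells shaded by log10(fragments + 1). Traf1 has at least 27 fragments in each KO library and at most 19 in each WT library, and Tnf has 7 fragments over all KO libraries and 0 over the WT libraries.

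Several members are neighbours in the genome (positions in mm10 as the table gives them). Ltbr ends 35.5 kb before Tnfrsf1a on chromosome 6, on the opposite strand, and Tnfrsf1b lies 20.3 kb from Tnfrsf8 on chromosome 4. Ltbr was tested in the same fit as Tnfrsf1a and did not pass, and Tnfrsf8 was under the filter. Tnf lies 1.2 kb from Lta and 3.1 kb from Ltb on chromosome 17. Tnfsf13, which encodes APRIL, averaged 0.294 FPKM in KO and 0.253 FPKM in WT, and shares 60.0% of its exon bases with the read-through gene that joins it to Tnfsf12, which averaged 0.0678 FPKM in KO and 0.0350 FPKM in WT. Tnfrsf26, Tnfrsf22 and Tnfrsf23 lie within a cluster on chromosome 7 and are close copies, so reads may be split between them. Tnfrsf23 averaged 0.271 FPKM in KO and 0.286 FPKM in WT, and Tnfrsf26 averaged 0.0485 FPKM in KO and 0.0397 FPKM in WT. None of the 5 called members shares exon bases with another annotated gene (GENCODE M21).

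Of 9 ligands and receptors of the superfamily with other symbols, 2 were tested and 0 were called by limma (0 also at an unadjusted p under 0.05, and 0 by voom). Relt, an orphan receptor, averaged 3.45 ± 0.278 FPKM in KO and 3.37 ± 0.400 FPKM in WT, and Eda, the ectodermal ligand, averaged 1.45 ± 0.0934 FPKM in KO and 1.32 ± 0.159 FPKM in WT (SD, n = 5 each). Eda2r, a receptor of an Eda isoform and a target of p53, was under the filter at 0.229, 0.537, 0.0363, 0.268 and 0.312 FPKM in KO1 to KO5, against 0.0532, 0.0803, 0.120, 0.0547 and 0.00857 FPKM in WT1 to WT5. The library labelled KO3 lay within the WT range and the other 4 above it (limma adjusted p = 0.113 without a filter, and 0.0128 with KO3 set aside as well). Cd40lg, the ligand of Cd40, was at 0 fragments in all 10 libraries.

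Downstream of the receptors, 35 of 38 listed pathway partners were tested, and 2 rose and 1 fell. These shares of 5.71% and 2.86% lie below the background of 9.77% and 3.51%. Tax1bp1, which works with the ubiquitin editor encoded by Tnfaip3 to end NF-kB signalling, measured 38.8, 37.1, 38.2, 39.4 and 36.0 FPKM in KO1 to KO5, against 31.4, 32.5, 35.5, 33.4 and 31.9 FPKM in WT1 to WT5, with no overlap (log2 difference 0.20, SE 0.05, limma adjusted p = 0.0270, lost without KO1, KO2, KO4, WT1, WT2 or WT5). Cflar, which encodes the caspase 8 inhibitor cFLIP, measured 4.82, 4.93, 3.64, 5.43 and 5.98 FPKM in KO1 to KO5, against 3.95, 3.80, 3.54, 3.79 and 3.66 FPKM in WT1 to WT5. The library labelled KO3 lay within the WT range (log2 difference 0.32, SE 0.09, limma adjusted p = 0.0470), and without it the log2 difference was 0.40 (limma adjusted p = 0.00207, range over 20 alternatives 0.00207 to 0.247). It was not called in any of the 9 other fits that leave out 1 library. Map3k5, the kinase that leads from Traf2 to JNK, measured 9.34, 7.22, 11.2, 8.54 and 8.43 FPKM in KO1 to KO5, against 13.1, 11.6, 11.6, 11.8 and 11.8 FPKM in WT1 to WT5. Every KO library lay below every WT library (log2 difference -0.40, SE 0.09, limma adjusted p = 0.0224), and the call was lost without KO2, KO4 or WT1.

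By role, 0 of the 12 tested genes of the receptor complex and its ubiquitin machinery passed, 1 of 7 editors and brakes rose, 1 of 7 tested genes of the death arm rose and 1 of 7 kinases fell. Neither of the 2 tested shedding genes passed, among them Adam17, the protease that releases TNF, at 5.71 ± 0.717 FPKM in KO and 5.42 ± 0.380 FPKM in WT (SD, n = 5 each). Without the library labelled KO3, 10 of 35 partners were called higher and 1 lower, against the background of 19.6% and 6.36%. Among the genes added in that fit were Birc3, Rnf31 and Sharpin of the receptor complex, Casp8 and Bid of the death arm, the kinase gene Map3k14 and the shedding cofactor gene Rhbdf1. Bid, a caspase 8 substrate that carries the signal to mitochondria, had the largest log2 difference among these genes, at 0.50 (limma adjusted p = 0.00548). Cflar was the partner with the lowest adjusted p among the genes higher in that fit.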

How the data were processed

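Libraries were made with NEBNext Ultra from total RNA extracted with a Kurabo kit, per the labels. The deposited values are the authors' FPKM for each gene in each library, per the file headers, beside coordinates (mm10) and gene lengths. The submitters' processing notes name the build mm10 and the tool DESeq2 without saying what each was used for. Aligner, counting tool and strand handling: not given in the sources used here. Multiplying FPKM by gene length and dividing by a step fitted for each library returned whole numbers for 100.0% of values above 0 (tolerance 0.02). These numbers were taken as fragments. Low counts and the spread between mice both limit precision. A floor of 3 fragments reflects counting error alone.

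The comparison of KO with WT used limma 3.58.1 in R 4.3.3 (lmFit, then eBayes with a mean trend) on log2(FPKM + 1), two-sided, with genotype as the sole term. It covered the 14497 genes whose mean reached 0.5 FPKM, and calls needed a Benjamini-Hochberg adjusted p under 0.05 across all of these. Differences on this scale understate the change of low genes. The procedure was run on simulated counts that held no shifts between libraries of a group. That run therefore says nothing on the dependence on single libraries seen here. Every member above the filter was named, those called and Tnf with every library, and of the partners and of genes under other symbols every called one. Bid, Adam17, Map3k14, Relt, Eda, Eda2r, Cd40lg and the partners called once KO3 was set aside were named outside that rule after their values were seen, except 1 gene that is not reported here. The members and lists were chosen with earlier results of these data known.

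All 47 members matched GENCODE M21, and 37 have a promoter window in RefSeq GRCm38.p6. Alternatives covered the pseudocount, filter, scaling, variance model, library weights, a replicate block, olfactory bulb markers, thresholds, voom on recovered fragments with trimmed-mean scaling, and each library left out. Chosen after seeing the data were the fits that set aside KO3 together with another library or with the bulb markers added, and those that drop the filter and each library in turn.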

Additional observations from a re-analysis of the deposited data

Results flagged for a closer look

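Among 28 genes and 56 groups of 5 libraries, 5 groups had 1 library far from the other 4, and chance alone gives about 1 group in 20. Ngfr was 3.11 FPKM in KO5, with the other KO libraries at 0.853 to 1.05 FPKM, and WT5 was the lowest of the WT libraries at 0.284 FPKM. Traf3 was 30.5 FPKM in WT1, with the other WT libraries at 23.6 to 25.4 FPKM. Map3k5 was 13.1 FPKM in WT1, and Traf6 was 3.85 FPKM in WT1. Traf2 was 2.41 FPKM in WT3. Without WT1 the log2 difference was -0.23 for Traf3 and -0.37 for Map3k5, and neither was called by limma, in a fit that called 2 of all 14497 genes. Without KO5 the log2 difference of Ngfr was 0.29, against 0.51 with all libraries.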

How the results depend on the processing

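No called gene among the 28 named reversed its direction under any alternative run. Of 1926 genes called over all genes (1417 higher, 509 lower), median-of-ratios scaling gave 625 higher and 901 lower, no filter 465, library weights 3557, the bulb score 0 (limma, 1452 higher and 758 lower at an unadjusted p under 0.05), the bulb score without KO3 931, and adjusted p under 0.10 and 0.01 gave 3546 and 2. Leaving out 1 library gave 2 genes (without KO2, KO4 or WT1) to 3763 (without KO3). Against 5 members called, no filter gave 2 (Tnfrsf1a and Traf1, of which the first is among the 5), median-of-ratios scaling 2 (Tnfrsf1a and Traf3), voom 3, the bulb score 0, the bulb score without KO3 3, and adjusted p under 0.01 gave 0. Leaving out 1 library gave 0 (without KO2, KO4 or WT1) to 8 members, and leaving out KO3 and a further library gave 5 to 8, with 8 for KO3 and KO5. Against 3 partners called, no filter gave 1, median-of-ratios scaling 1, library weights 10, voom 1, the bulb score 0 (limma, 1 higher and 2 lower at an unadjusted p under 0.05), adjusted p under 0.10 gave 8 and under 0.01 gave 0, and leaving out 1 library gave 0 to 11. The cause was not tested. In the labels, same-numbered KO and WT libraries shared only a number, and whether they shared more was not tested. Correlations of their deviations were 0.138, -0.0428, -0.0574, 0.139 and 0.114. A replicate block on the number gave 1271 genes, 4 members (without Traf4) and 2 partners. Of the 23 members under the filter, 7 ligands had at most 4 fragments in any library.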
